A study of Mus musculus with 3 samples.

Results

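Long noncoding RNAs are transcripts that are not translated into protein and that act in the nucleus, serve as hosts for smaller RNAs, or do both. The 7 considered here are Neat1, Malat1, Kcnq1ot1, Gas5, Snhg1, Snhg12 and Mir155hg. They were chosen by mouse gene symbol, and each symbol was found once among the 54331 features of the deposited table. All 7 passed the filter on low values, a mean of at least 10 normalized counts, which 13877 features passed.

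The RNA came from RAW 264.7 cells, a mouse macrophage line of BALB/c background from a male animal. Every culture had received lipopolysaccharide (LPS), which bacteria carry and TLR4 senses, for 5 h at 100 ng/mL. The control group is 1 library from wild-type cells with a control shRNA. The group labelled GIV-depleted is 2 libraries, each with its own shRNA against GIV (also named Girdin), a scaffold protein and modulator of G proteins encoded by Ccdc88a. Libraries were made with a stranded mRNA kit, and the labels do not say whether cells were pooled or cloned after the shRNA was introduced. No culture without LPS was analysed here, so the values below are levels in activated cells and not responses to LPS.

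The 3 libraries were of similar depth, with 20030 to 20590 features above 0 and roughly 44800000 to 52700000 reads. Ccdc88a, the targeted gene, had a log2 difference from the control of -0.57 with shRNA 1 and of -0.01 in the library labelled as shRNA 2, whose label its mRNA level therefore goes against. The share of mitochondrially encoded transcripts was 1.43% in the control, 0.995% with shRNA 1 and 1.14% in the library labelled as shRNA 2. The 9 macrophage markers examined were all above the filter, and 6 of them were lower than the control in both other libraries. Their summed value was 452958 in the control, 343547 with shRNA 1 and 366179 in the library labelled as shRNA 2. The largest part of it was 1 gene, Lyz2 (199781, 121997 and 138145 in that order). The lymphocyte list had 3 of 10 markers above the filter, with Cd3e and Trac at 0. Its sum was 871, 1596 and 1824 in the same order, most of it Ighm (721, 1422 and 1671). Pax5, a B cell marker, had 138, 160 and 113. Dendritic cell markers summed to between 1122 and 1285, with Flt3 and Siglech at 0. Most of that sum was Itgax (725, 970 and 764) and Xcr1 (383, 278 and 320). Neutrophil and mast cell markers summed to between 46.7 and 103, and epithelial and fibroblast markers to between 3.85 and 7.78. The part of these shifts in the results below was not tested, and in such bulk RNA fewer cells of a type and less RNA per cell cannot be told apart.

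Each of these RNAs has a known place in the cell. Neat1 is the architectural RNA of paraspeckles, nuclear bodies that hold back RNAs and RNA-binding proteins and that are known to grow in stimulated cells. Malat1, its neighbour on the chromosome, gathers in nuclear speckles with splicing factors. Kcnq1ot1 is transcribed antisense to Kcnq1 from the paternal chromosome and silences neighbouring imprinted genes. Gas5, Snhg1 and Snhg12 carry small nucleolar RNAs (snoRNAs), guides for the modification of ribosomal RNA, in their introns, and the spliced host RNAs of this class are commonly cleared by nonsense-mediated decay. Mir155hg is the primary transcript of miR-155, a microRNA induced by TLR ligands in macrophages.

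Of the 7 RNAs, Neat1 alone was lower by at least 1.5-fold than the control, and it was so in both GIV shRNA libraries. Malat1 was above the control in both. The 3 snoRNA hosts and Kcnq1ot1 lay within 15% of the control in every library. Mir155hg was above the control with shRNA 1 and below it in the library labelled as shRNA 2. None of the 7 passed limma's test at an adjusted p of 0.05, as was true of all 13877 features tested (0 calls, 0%). At an unadjusted p under 0.05 limma called 963 features, or 6.94%, and 1 of the 7 RNAs, Neat1.

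**Figure D1:**
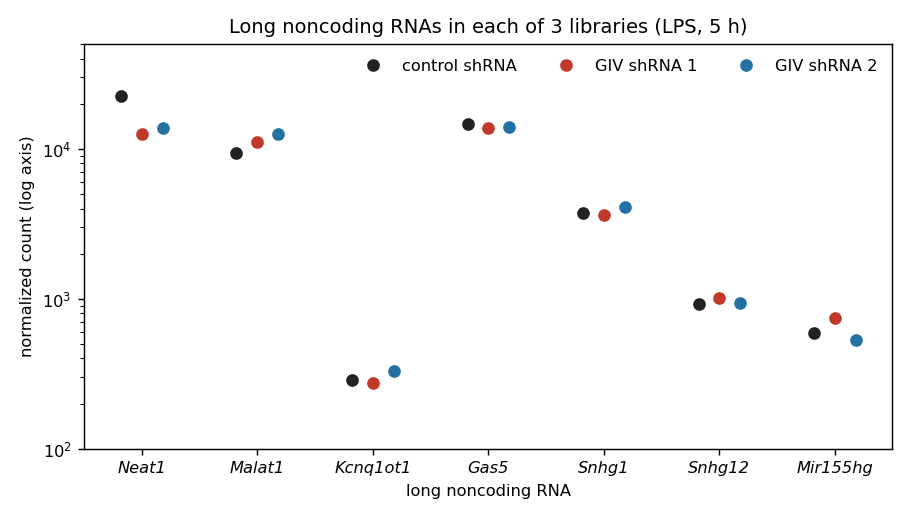
Normalized counts (log axis) of the 7 long noncoding RNAs in each library, 1 point per library. The control point of Neat1, at 22586, stands above the other 2, at 12486 and 13729, while for Gas5 the 3 points nearly coincide.

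Neat1 (ENSMUSG00000092274.3) lies on chromosome 19 from 5824708 to 5845478, minus strand, GRCm38. It has 4 annotated transcripts, and its longest is a single unspliced RNA of 20771 bases. A shorter one has 3004 bases and ends closer to the start of the gene. The last 60 bases of both are shown because the ends differ in kind. The end of the shorter one holds the polyadenylation signal AATAAA (capitals), whereas that of the longest has no such signal and ends in genome-encoded A runs (runs of at least 4 in capitals).
Neat1 short transcript, chr19:5842307-5842366: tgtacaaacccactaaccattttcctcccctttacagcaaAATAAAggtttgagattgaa
Neat1 long transcript, chr19:5824708-5824767: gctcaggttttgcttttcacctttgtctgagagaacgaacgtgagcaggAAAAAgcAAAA
The table gives 1 value per gene, so the short and the long transcript cannot be told apart in these data. Of the 4 annotated transcripts, 1 had AATAAA within its last 40 bases.

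Neat1 had 22586 normalized counts in the control, 12486 with shRNA 1 and 13729 in the library labelled as shRNA 2. The control was the highest of the 3, and the other libraries had 13107 ± 879 (SD, n = 2). Those libraries differed from each other by 0.14 on the log2 scale (95% counting interval 0.10 to 0.17), beyond counting error. The change from the control was -44.7% with shRNA 1 and -39.2% in the library labelled as shRNA 2. In the latter, Ccdc88a mRNA was at the control level. On the log2 scale the differences were -0.86 (95% counting interval -0.89 to -0.82) and -0.72 (-0.75 to -0.69). These intervals treat each value as a number of reads, about 24252 in the control, and cover counting error only. Both differences from the control use the same control library, so they are not independent of each other.

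For both GIV shRNA libraries together the log2 difference of Neat1 was -0.79 (SE 0.13), with an unadjusted p of 0.0041 and an adjusted p of 0.374 in limma. The difference exceeded its standard error but did not pass after adjustment over all features. Among all tested features, 4.01% had a lower difference with shRNA 1 and 4.88% in the library labelled as shRNA 2. Among the 1071 tested features of long noncoding types, those shares were 11.3% and 10.8%. A value at least 1.5-fold below the control was found for 7.85% of all tested features with shRNA 1 and 7.19% in the library labelled as shRNA 2. Among long noncoding features this held for 19.05% and 14.8%. After removal of the trend with GC content and transcript length, the Neat1 differences were -1.12 and -0.95.

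A short annotated RNA inside Neat1 had the same pattern. Gm28006 (ENSMUSG00000098986.1, chromosome 19, 5844916 to 5845037, same strand) covers bases 442 to 563 of the long transcript. It had 163 normalized counts in the control, 81.1 with shRNA 1 and 85.0 in the library labelled as shRNA 2, which is 0.498 and 0.522 of the control. Reads from this stretch belong to both features, and no source used here says how the authors' counting divided them, so this value is uncertain and no independent measure of Neat1. The other 2 short RNAs annotated inside Neat1 were at 0 in every library.

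Malat1 (ENSMUSG00000092341.3) lies on the same strand of chromosome 19, from 5795690 to 5802672, and its longest transcript has 6983 bases. Its 3′ part is shown because it carries a genome-encoded A run (capitals) like the one at the end of the long Neat1 transcript. The A run of Malat1 has 12 bases, at positions 6674 to 6685 of that transcript.
Malat1 3′ part, chr19:5795980-5796039: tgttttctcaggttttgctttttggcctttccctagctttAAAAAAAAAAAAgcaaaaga
Malat1 and Neat1 shared stretch: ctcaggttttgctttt
The shared stretch of 16 bases starts at base 2 of the long Neat1 window and at base 7 of the Malat1 window. For MALAT1 and the long NEAT1 transcript of human cells, such U-rich and A-rich stretches are known to form a triple helix that protects a 3′ end made by RNase P.

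Malat1 had 9410 normalized counts in the control, 11121 with shRNA 1 and 12513 in the library labelled as shRNA 2. Here the control was the lowest of the 3 libraries, and the highest was the one with Ccdc88a mRNA at the control level. The level was 18.2% and 33.0% above the control, with log2 differences of 0.24 (95% counting interval 0.20 to 0.28) and 0.41 (0.37 to 0.45). The GIV shRNA libraries also differed from each other, by 0.17 (0.13 to 0.21), beyond counting error. Together they gave 0.33 (SE 0.14, adjusted p = 0.732 in limma). With the trend with GC content and length removed, the differences shrank to 0.08 with shRNA 1 and 0.28 in the library labelled as shRNA 2. Of all tested features, 77.0% had a lower difference than Malat1 with shRNA 1 and 84.9% in the library labelled as shRNA 2.

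The control was above both other libraries for 2 of the 7 RNAs, Neat1 and Gas5, and so it was for 35.2% of all tested features. It was below both for 2, Malat1 and Snhg12, as it was for 34.9% of all features. No RNA of the set was at least 1.5-fold above the control, against 8.83% of features with shRNA 1 and 9.99% in the library labelled as shRNA 2. None differed by at least 2-fold, against 6.92% and 7.32%. The median log2 difference of the 7 was -0.03 with shRNA 1 and 0.01 in the library labelled as shRNA 2, and both medians over all tested features were within 0.01 of 0. For the 1071 long noncoding features the medians were -0.12 and -0.07.

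**Figure D2:**
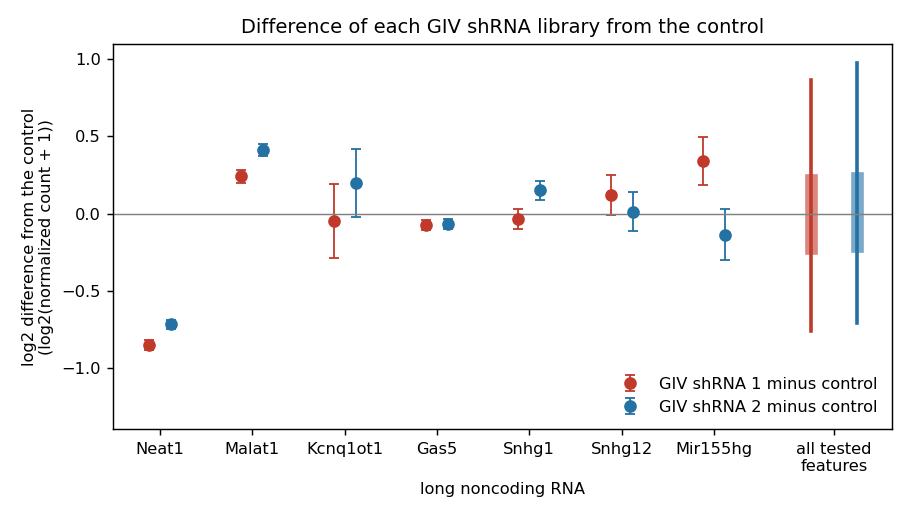
Log2 difference of each GIV shRNA library from the control, per RNA, on the log2(normalized count + 1) scale. Points are single libraries and bars are 95% counting intervals. At the right, thick bars span the middle 50% and thin bars the 5% to 95% range of all 13877 tested features, and Neat1, at -0.86 and -0.72, lies just below the lower ends of those ranges (-0.76 and -0.71).

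The mRNAs of proteins found in the bodies where Neat1 and Malat1 reside were examined next. Of 25 mRNAs of paraspeckle proteins, all tested, 13 were higher and 7 lower in both libraries, with medians of 0.07 and 0.03. An unadjusted p under 0.05 in limma was found for 1 member, against 6.94% of all tested features. Of all tested features, 34.9% were higher and 35.2% lower in both libraries, and these shares also stand beside the list counts below. The mRNAs of the core proteins Nono, Sfpq and Pspc1 did not share a direction. Sfpq, whose protein binds Neat1 to assemble the body, had 22577 normalized counts in the control, 23485 with shRNA 1 and 21889 in the library labelled as shRNA 2. The member with the largest difference was Rbm12, which encodes an RNA-binding protein, with 614, 1653 and 1708 normalized counts in that order. Its log2 difference was 1.45 (SE 0.15, adjusted p = 0.195 in limma). Rbm12 overlaps Cpne1 on the same strand of chromosome 2, and Cpne1 had 1483, 2401 and 2397, so the division of reads between them is uncertain. Of 19 mRNAs of nuclear speckle proteins, 7 were higher and 5 lower in both libraries, with medians of 0.02 and -0.01. The splicing factor Srsf11 was the furthest from the control in that list, with 7757, 10167 and 9311 normalized counts and a difference of 0.33 (SE 0.13, adjusted p = 0.731).

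Kcnq1ot1 (ENSMUSG00000101609.2) lies on chromosome 7 from 143203458 to 143296549, minus strand, as 1 unspliced transcript of 93092 bases inside Kcnq1, which is read from the opposite strand. It had 286 normalized counts in the control, 276 with shRNA 1 and 328 in the library labelled as shRNA 2. The last of these was the highest, and the control lay in between. The log2 differences were -0.05 (95% counting interval -0.29 to 0.19) and 0.20 (-0.02 to 0.42). With about 248 to 339 reads per library, neither difference from the control exceeded counting error. The GIV shRNA libraries differed from each other by 0.25 (0.01 to 0.48), just beyond counting error. The joint difference was 0.07 (SE 0.25, adjusted p = 0.960 in limma), and it turned to -0.11 once the trend with GC content and length was taken out.

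The RNA of Kcnq1 itself, the potassium channel gene on the other strand, was at 0 in all 3 libraries, as were the 4 short RNAs annotated on that strand within Kcnq1ot1. The kit marks strand, but no source used here says whether the authors' counting used it. Of the 17 genes listed for the imprinted domain, 6 were at 0 in every library, among them Cdkn1c and Phlda2, growth-restraining genes that Kcnq1ot1 is known to silence on the paternal chromosome. Of the 8 tested, which include Kcnq1ot1 itself, 3 were higher and 1 lower in both libraries, with medians of 0.12 and 0.15. Nap1l4, a histone chaperone gene at the edge of the domain, had 3510 normalized counts in the control, 6150 with shRNA 1 and 5459 in the library labelled as shRNA 2 (0.72, SE 0.14, adjusted p = 0.464). Tnfrsf22, a decoy receptor gene, had 141, 226 and 249 (0.75, SE 0.26, adjusted p = 0.709). Cd81, a tetraspanin gene, was highest in the library labelled as shRNA 2, with 262, 236 and 508.

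The 3 snoRNA hosts are short, spliced RNAs with many annotated forms. Many hosts of this class start like genes of the translation machinery, whose RNAs begin with a C followed by a run of pyrimidines (the 5′ TOP). A start site of each host in the RefSeq promoter table is shown with 20 bases on either side. Capitals mark the longest C and T run that touches a base within 3 of the start. Gas5 has another, upstream start in that table, at a G.
Gas5, chr1:161035146-161035186: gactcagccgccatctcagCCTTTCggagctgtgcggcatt
Snhg1, chr19:8723467-8723507: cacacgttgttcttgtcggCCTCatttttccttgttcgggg
Snhg12, chr4:132308658-132308698: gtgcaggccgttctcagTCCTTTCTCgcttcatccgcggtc
The runs have 6, 4 and 9 bases in the order shown and include the annotated start, whose base is C, C and T. Each run also takes in sequence before the start, so it is longer than the run at the start of the RNA itself. Of 32851 promoters in the table, 16.8%, 38.9% and 5.62% had a run at least as long by the same rule. These letters describe the annotated starts and were not measured in these libraries.

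Gas5 (ENSMUSG00000053332.13, chromosome 1, 161034422 to 161038539, plus strand) had 14542 normalized counts in the control, 13821 with shRNA 1 and 13876 in the library labelled as shRNA 2. The control was the highest, and the changes from it were -4.96% and -4.58%. The log2 differences were both -0.07, with 95% counting intervals of -0.11 to -0.04 and -0.10 to -0.03. The GIV shRNA libraries differed from each other by 0.01 (-0.03 to 0.04), which is within counting error. The joint difference was -0.07 (SE 0.12, adjusted p = 0.919 in limma).

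Snhg1 (ENSMUSG00000108414.1, chromosome 19, 8723475 to 8726443, plus strand) had 3713 normalized counts in the control, 3625 with shRNA 1 and 4123 in the library labelled as shRNA 2. The last of these was the highest, while the first pair differed by less than counting error. Its log2 differences were -0.03 (-0.10 to 0.03) and 0.15 (0.09 to 0.21), and the joint value was 0.06 (SE 0.15, adjusted p = 0.946). Snhg12 (ENSMUSG00000086290.9, chromosome 4, 132308623 to 132311024, plus strand) had 928, 1011 and 935 normalized counts in the same order. Its differences were 0.12 (-0.01 to 0.25) and 0.01 (-0.12 to 0.14), so that no pair of libraries was separated by more than counting error, and the joint value was 0.07 (SE 0.17, adjusted p = 0.945).

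The snoRNAs inside the 3 hosts were mostly not counted, and these libraries were made from mRNA. Of 23 annotated snoRNA features, 19 were at 0 in every library. Gm22357, in Gas5, had 278 normalized counts in the control, 239 with shRNA 1 and 218 in the library labelled as shRNA 2. Snord22, in Snhg1, had 52.2, 34.5 and 49.3 in that order. Both overlap their host on the same strand, so their reads may come from the host RNA, and their values are uncertain.

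Other genes of the same class and of the clearing pathway lay on both sides of the control. Of 24 listed snoRNA hosts, which include these 3, 20 were tested, 6 higher and 7 lower in both libraries, with medians of -0.05 and -0.01. Zfas1, the host of box C/D snoRNAs beside Znfx1, had 3770, 3236 and 3325 normalized counts in the control, with shRNA 1 and in the library labelled as shRNA 2. Snhg10 had 19.7, 9.70 and 9.91 (-0.94, SE 0.55, adjusted p = 0.780 in limma). Snhg18 had 3.75, 18.9 and 7.69 (1.47, SE 0.79, adjusted p = 0.764). Both rest on few reads. Snhg20 had 562, 313 and 515, low with shRNA 1 alone, and Epb41l4aos had 172, 154 and 78.4, low in the library labelled as shRNA 2 alone. Of 18 translation genes with a 5′ TOP, 6 were higher and 8 lower, with medians of -0.003 and -0.06. Of 20 nonsense-mediated decay factors, 4 were higher and 5 lower in both, with medians of 0.05 and -0.05. The central helicase of that pathway, Upf1, had 4423, 4294 and 4210. The decay factor with the largest difference was Pnrc2, a decapping cofactor, with 2714, 4529 and 5349 (0.86, SE 0.16, adjusted p = 0.432 in limma).

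**Figure D3:**
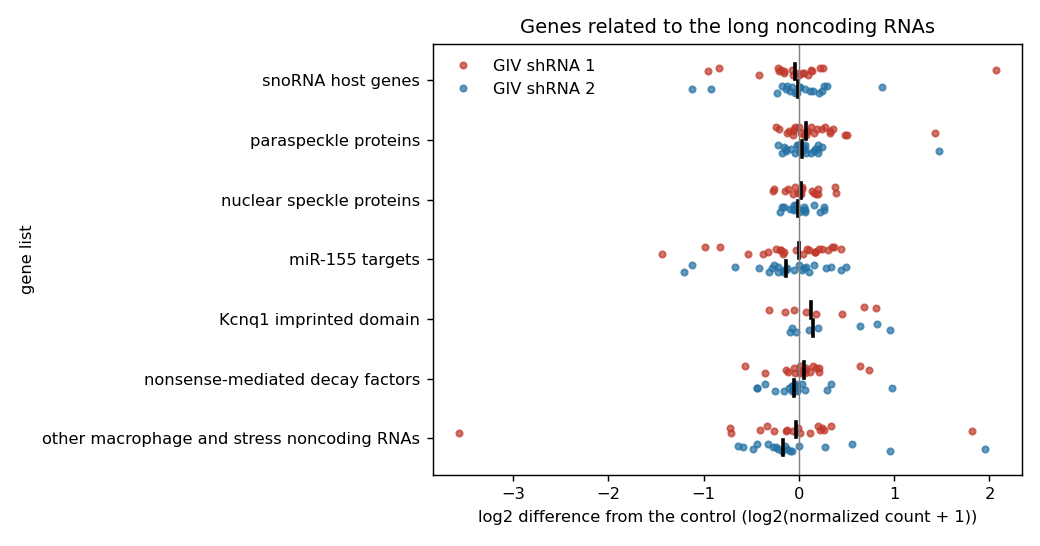
Log2 difference from the control of the tested genes in 7 lists related to the long noncoding RNAs, on the log2(normalized count + 1) scale. Each point is 1 gene in 1 library and black bars are list medians, all between -0.16 and 0.15.

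Mir155hg (ENSMUSG00000097418.7) lies on chromosome 16 from 84703167 to 84715245, plus strand, with 2 annotated transcripts and 1433 bases of exon. Its product is shown because the RNA is known for it. The hairpin lies at chr16:84714140-84714204 (GRCm38.p6, RefSeq), with both mature arms in capitals, and the seed (bases 2 to 8) of each arm is in capitals on its own line.
Mir155 hairpin: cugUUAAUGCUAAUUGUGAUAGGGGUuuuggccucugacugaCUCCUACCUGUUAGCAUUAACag
mmu-miR-155-5p: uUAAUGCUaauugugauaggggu
mmu-miR-155-3p: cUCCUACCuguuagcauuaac
The host ends with a polyadenylation signal (AATAAA, capitals) in its last 60 bases.
Mir155hg end, chr16:84715186-84715245: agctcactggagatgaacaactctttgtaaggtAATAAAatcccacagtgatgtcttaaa
The hairpin feature Mir155 was at 0 in all 3 libraries, which were not made to hold small RNAs. The host value is therefore the measure of this locus in these data and says nothing of mature miR-155.

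Mir155hg had 588 normalized counts in the control, 746 with shRNA 1 and 534 in the library labelled as shRNA 2. The control lay between the other libraries, and the GIV shRNA libraries were the furthest apart of all 7 RNAs on the log2 scale. Its log2 difference with shRNA 1 was 0.34 (95% counting interval 0.19 to 0.50), and in the library labelled as shRNA 2 it was -0.14 (-0.30 to 0.03). The value with shRNA 1 was 1.40 times that of the library labelled shRNA 2, a log2 difference of -0.48 for shRNA 2 minus shRNA 1 (-0.64 to -0.32). Of all tested features, 8.69% had a lower value of this difference. At least 1.5-fold between these libraries was reached by 15.5% of features and by 0 of the 7 RNAs. The joint difference was 0.10 (SE 0.28, adjusted p = 0.95 in limma), with its sign set by which library is considered. The library labelled shRNA 2, in which Ccdc88a was at the control level, had the lower Mir155hg. That library also had Neat1 at -0.72 and Malat1 at 0.41 from the control on the log2 scale. Whether any of these values follow Ccdc88a was not tested.

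Targets of miR-155 known from macrophages and lymphocytes were examined beside it. The 5p seed pairs with the letters AGCATTA in an mRNA. The first such match in the 3′ UTR of 5 listed targets is shown, with the match in capitals, and in each it is followed by an A.
Socs1: tgccgctgtgccgcAGCATTAa
Inpp5d: agatgtttttaaaaAGCATTAa
Cebpb: ccttttccgtttcgAGCATTAa
Bach1: tctatgaacagtttAGCATTAa
Jarid2: actgattttgttttAGCATTAa
Of the 24 listed targets tested, 15 (62.5%) had at least 1 match, against 1062 of 11494 protein-coding features tested (9.24%). The listed genes are known for such sites, so that share is no result of these libraries.

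Of the 24 targets, 9 were higher and 12 lower in both libraries, with medians of 0.01 with shRNA 1 and -0.13 in the library labelled as shRNA 2. The 15 with a match had medians of -0.03 and -0.12. All 1062 protein-coding features with a match had 0.09 and 0.05, and the 10432 without one had 0.003 and -0.002. The features with a match have longer 3′ UTRs, with a median of 2774 bases against 1073. Targets therefore lay on both sides of the control. Socs1, an inhibitor of cytokine receptor signalling, had 514 normalized counts in the control, 290 with shRNA 1 and 236 in the library labelled as shRNA 2, with a joint difference of -0.97 (SE 0.26, adjusted p = 0.615 in limma). Inpp5d, which encodes the phosphatase SHIP1, had 3373, 4574 and 4754 (0.47, SE 0.13, adjusted p = 0.629). Cebpb, a transcription factor of the LPS response, had 2352, 1985 and 1477, and Bach1, a repressor of heme oxygenase, had 3581, 3212 and 3202. Jarid2, a cofactor of Polycomb complexes, had 9715, 12517 and 9711, high with shRNA 1 alone.

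Levels of different genes can be compared only per length. Per kilobase of exon in the control, Gas5 had 3868 normalized counts, Malat1 1348, Snhg1 1251, Neat1 1087, Mir155hg 410, Snhg12 387 and Kcnq1ot1 3.07. Gas5 thus had the highest value of the 7 on this scale and Kcnq1ot1 by far the lowest. Whether the mRNA kit captured these RNAs, whose 3′ ends differ in kind, equally well was not tested. With shRNA 1 the level per kilobase of Neat1 was 601, and in the library labelled as shRNA 2 it was 661, leaving it at rank 4 of the 7 in each library. Snhg12 and Mir155hg were neighbours whose order changed on this scale. Mir155hg had 520 and 373 per kilobase in those libraries against 421 and 389 for Snhg12. Malat1 and Snhg1 were 1593 and 1221 with shRNA 1, and 1792 and 1389 in the library labelled as shRNA 2. With the median annotated transcript as the length, Malat1 (15528 per kilobase) and Neat1 (11198) in the control lay above Snhg1 (6162), and Gas5 (23119) was again the highest. Under the median or the longest transcript, Snhg12 was above Mir155hg in every library, so their change of order depends on the length used. Among the 1071 tested long noncoding features, Neat1 had the eighth highest mean normalized count of all, a quantity that grows with length, and ranked 43rd per kilobase. Gas5 ranked 11th, Malat1 25th, Snhg1 28th, Mir155hg 67th, Snhg12 71st and Kcnq1ot1 1022nd per kilobase.

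**Figure D4:**
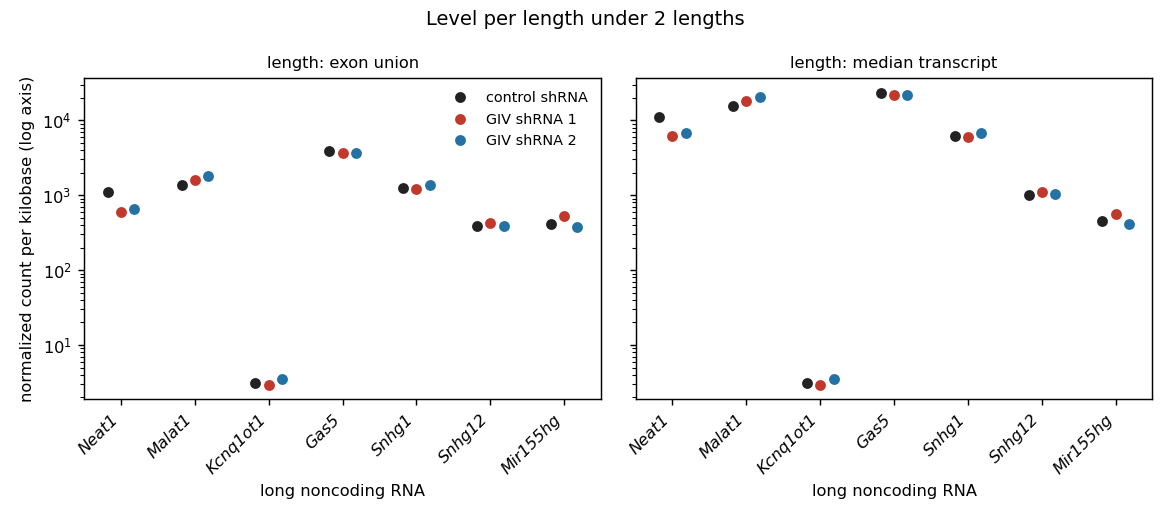
Normalized counts per kilobase (log axis) of the 7 RNAs in each library, with the union of exons as the length at the left and the median annotated transcript at the right. Gas5 is highest under both lengths, at 3868 and 23119 in the control, and Kcnq1ot1 lowest, at 3.07.

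The features most like each RNA were found by the distance between pairs of log2 differences from the control, over the 3 libraries and 10559 features with a mean of at least 100. With only 3 libraries that share 1 control, many features lie close by. For Neat1, 5 features lay within 0.1, and the nearest were the pseudogenes Gm29216 (distance 0.022, 24048, 13117 and 14728 normalized counts), Gm9894 and Rpl17-ps3. Reads of such copies can be shared with other genes, so their values are uncertain. Within 0.1 of Malat1 there were 185 features, the nearest being Chmp6, Zfp54 and Gnl3. Mir155hg had 81, led by Eif3j1, Rnf44 and Gm6733. Between 362 and 931 features lay that close to Kcnq1ot1 (Agk and Trit1 among the nearest), Gas5 (Ralb, Raly and Slc25a44), Snhg1 (Ccdc167, Jmjd6 and Ints6l) and Snhg12 (Zfp422, Ppp6c and Pkn2).

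Other noncoding RNAs known from macrophages or stressed cells were counted from a list of 28, of which 18 were tested. In both libraries 3 were higher and 9 lower, with medians of -0.03 and -0.16. These counts and medians include Epop, a protein-coding gene listed by mistake, among the lower genes. Among the 1071 tested features of long noncoding types, 26.8% were higher and 41.6% lower in both libraries. Trp53cor1, the p53-induced lincRNA-p21, had 8.47 normalized counts in the control, 32.5 with shRNA 1 and 35.6 in the library labelled as shRNA 2 (1.89, SE 0.48, adjusted p = 0.591 in limma). With a control value below 10, this difference rests on few reads. Morrbid, listed as Gm14005 and known to prolong the life of myeloid cells, had 926, 733 and 738. Mir142hg, the host of a microRNA of blood cells, had 345, 211 and 305. Tug1, another abundant nuclear RNA and 1 of the 3 listed that were higher in both libraries, had 5776, 6909 and 7002. Rmrp had 10.8 and 21.9 in the control and the library labelled shRNA 2 and was at 0 with shRNA 1.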

How the data were processed

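RNA sequencing libraries (1 control, 2 GIV shRNA) were grouped by their titles. The deposited table holds normalized counts, a signal that is never negative, made by the authors. Per the submitters' processing notes, Salmon, DESeq, DESeq2 and GRCm38 were used, with no version, role or annotation release stated. Totals were 49088771 (control), 49756670 (shRNA 1) and 47349097 (library labelled shRNA 2). Dividing by the commonest lowest value of a library (0.931, 1.11 and 0.966) gave approximate reads, from which 95% counting intervals were computed. Of the low values, 82.9% to 83.6% were within 0.1 of a whole multiple, too few for count models.

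Identifiers were matched without version to GENCODE M21 of GRCm38 (54097 with a symbol, 234 without). Levels were tested as log2(value + 1) with limma 3.58.1 in R 4.3.3 (eBayes with trend, two-sided, Benjamini-Hochberg over the 13877 features with a mean of at least 10), a scale that understates changes of low genes. There is 1 residual degree of freedom, and the control is taken to vary like the other pair. The labels name no separate experiments, so p-values reflect only how these libraries, with different shRNAs, differ. Single-library differences have no test. The fit was tested on simulated data.

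The RNAs and the 15 gene lists (236 genes, 4 matched by an older symbol) were chosen with earlier results of these data known. Named besides the 7 RNAs are overlapping genes, Ccdc88a, up to 4 genes per list with the largest mean difference and the 3 nearest features per RNA; some genes that this rule names are not reported here. Nono, Sfpq, Pspc1, Upf1, Zfas1, Cebpb, Bach1, Jarid2, Morrbid, Tug1, Cpne1, Cdkn1c, Phlda2, Cd3e, Trac, Flt3 and Siglech were named outside that rule, after values were seen. The list of other noncoding RNAs holds 1 protein-coding gene, Epop, entered by mistake. LPS-response genes (12 of 13 tested, 7 higher and 4 lower in both libraries) were also counted. Sequences come from RefSeq (GRCm38.p6) and GENCODE M21. The promoter of Neat1 was not used here. Alternatives covered the pseudocount, the filter, library scaling, quantile normalization, the variance trend, a trend with GC content and length, the fold rule, the length and leaving out a GIV shRNA library.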

Additional observations from a re-analysis of the deposited data

How the results depend on the processing

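Over 9 alternatives to the fit, no RNA of the set reached an adjusted p of 0.05 by limma. The difference of Neat1 ranged from -1.04 to -0.76 (adjusted p 0.190 to 0.655), that of Malat1 from 0.18 to 0.34 (0.586 to 0.913), Gas5 from -0.08 to -0.05, Snhg1 from 0.04 to 0.07, Snhg12 from 0.03 to 0.13 and Mir155hg from 0.07 to 0.12. Kcnq1ot1 turned to -0.11 once the trend with GC content and length was taken out (adjusted p 0.871 to 0.979 over all alternatives), and the cause was not tested. Leaving out 1 GIV shRNA library gave -0.049 to 0.20 for Kcnq1ot1, -0.035 to 0.15 for Snhg1 and -0.14 to 0.34 for Mir155hg, each on both sides of 0. No paired analysis was possible because the single control library carries no shRNA number. Of 112 single-library values under alternatives 107 moved by less than the spread, and all 5 others came from removing the GC and length trend, under which Neat1 with shRNA 1 passed 2-fold (1 of the 7, against 0). Across all features, 1 passed an adjusted p of 0.05 with a mean of at least 50, equal totals, median-ratio scaling or that trend removed, and 0 otherwise, while an unadjusted p under 0.05 was found for 2716 of 23815 features without the filter, against 963. Features at least 2-fold from the control numbered 960 with shRNA 1 and 1016 in the library labelled shRNA 2. They became 593 and 677 with a pseudocount of 10, 5419 and 4344 without the filter, and 382 and 424 at a mean of at least 50, and 2314 and 2384 passed 1.5-fold. Per kilobase of the median transcript the control had 11198 for Neat1, 15528 for Malat1, 23119 for Gas5, 6162 for Snhg1, 1014 for Snhg12 and 448 for Mir155hg. With the longest transcript it had 5689 for Gas5, 1361 for Snhg1 and 604 for Snhg12. Depth limits Kcnq1ot1 and Mir155hg most, and features near the filter stand for about 10 reads.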
